A study of Mus musculus with 4 samples.

Results

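The 10 genes described here encode transcription factors that mark lung epithelium, Nkx2-1, Foxa1, Foxa2, Etv5, Irx1, Irx2, Irx3, Irx5, Elf5 and Sox9, out of 31055 features measured by droplet-based 3′ single-cell RNA-seq of mouse lung tumors. They were taken by gene symbol. For each gene, unique molecular identifiers (UMIs, each standing for 1 captured RNA molecule) were summed over marker-gated cell types and over epithelial cells with and without RNA of Hopx, a homeobox gene of alveolar type I (ATI) cells. The sums are given as counts per 1e+06 UMIs of the same cells (CPM).

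The cells came from microdissected tumors of 4 female mice, 2 of the Restored cohort and 2 of the Non-Restored cohort. Both cohorts carried Lkb1XTR/XTR together with the reporter Rosa26LSL-tdTomato, and the Restored mice alone had FLPo-ERT2, listed as Rosa26LSL-tdTomato/FLPo-ERT2. All mice therefore carried the XTR allele of Lkb1 (Stk11), in which Cre inverts a gene trap that stops transcription and expresses GFP, and tumors were started by lentiviral Cre given into the trachea when the mice were young adults. Tumors grew for 16 weeks, and all 4 mice received 4 mg doses of tamoxifen over the final 2 weeks, which removes the trap only where FLPo-ERT2 is present. Viable cells were sorted without a lineage marker, and Cre-exposed cells of any lineage can carry the tdTomato reporter. The deposited matrix held 20351 cells that carry no link to a mouse, so it was counted as 1 sample. Restored and Non-Restored mice were not compared, no p-value is given, and every interval is an exact 95% interval that covers counting error only. A difference between cell groups and unequal contributions of the 4 mice to those groups cannot be told apart.

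NKX2-1, a homeodomain factor, is required for lung specification and for transcription of surfactant genes, and the forkhead factors FOXA1 and FOXA2 open chromatin in endoderm-derived epithelia and act beside it. ETV5 and ELF5 belong to the ETS family, and ETV5 acts downstream of fibroblast growth factor (FGF) signaling in alveolar type II (ATII) cells, the surfactant-making cells that can give rise to ATI cells. IRX1, IRX2, IRX3 and IRX5 are Iroquois homeodomain factors encoded by paired gene clusters, and SOX9 is a factor of distal tip progenitors in the developing lung and of mesenchymal cells that form cartilage.

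On mm10 (GENCODE vM21), Nkx2-1 lies on chromosome 12 from 56531958 to 56536908, and Foxa1 lies 1004 kb away on the same chromosome from 57540628 to 57546916, both on the minus strand. Foxa2 occupies 148042877 to 148046969 of chromosome 2 on the minus strand, and Elf5 occupies 103411688 to 103450989 of the same chromosome on the plus strand. Irx1 (71957921 to 71963723, minus strand) and Irx2 (72628820 to 72634198, plus strand) lie 665 kb apart on chromosome 13. Irx3 (91798525 to 91802067, minus strand) and Irx5 (92357625 to 92376286, plus strand) lie 556 kb apart on chromosome 8. Etv5 spans 22381309 to 22439719 of chromosome 16 on the minus strand, and Sox9 spans 112782224 to 112787760 of chromosome 11 on the plus strand. Nkx2-1 overlaps the antisense gene Gm26973 and Irx3 overlaps the antisense gene Irx3os, and no source used here says whether counting used the strand, so reads of these pairs may not be told apart.

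Promoter windows of RefSeq (GRCm38.p6), reaching 250 bases before and 50 bases after a start site, matched 7 of the 10 genes. Irx1, Irx5 and Sox9 had no entry. The windows were searched on both strands for a forkhead motif (TGTTTAC), an NKX2 motif (CACTTGA), an ETS motif (CCGGAAG) and a C/EBP motif (TTGCNNAA). These are letters known to be bound by the families of FOXA1 and FOXA2, of NKX2-1, of ETV5 and ELF5, and by the C/EBP family. No motif of the Iroquois factors or of SOX9 was searched, and no match overlapped another. Stretches are shown for 4 genes, Nkx2-1 because it had the most UMIs of the group, and the other 3 because they held a match. Each is written 5′ to 3′ on the strand of its gene, with a match in capitals and with bases annotated as exons left out, except for Elf5, whose window lay entirely in an exon of a longer annotated transcript and is cropped to 30 bases around the match. They are chr12:56536909-56537158 (minus strand), chr12:57546122-57546361 (minus strand), chr16:22439720-22439820 (minus strand) and chr2:103411852-103411881 (plus strand).
Nkx2-1: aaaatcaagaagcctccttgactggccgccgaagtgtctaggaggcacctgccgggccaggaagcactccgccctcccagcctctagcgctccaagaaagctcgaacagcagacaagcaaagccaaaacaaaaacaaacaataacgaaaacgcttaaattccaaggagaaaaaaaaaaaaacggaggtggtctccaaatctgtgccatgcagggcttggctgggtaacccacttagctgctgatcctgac
Foxa1: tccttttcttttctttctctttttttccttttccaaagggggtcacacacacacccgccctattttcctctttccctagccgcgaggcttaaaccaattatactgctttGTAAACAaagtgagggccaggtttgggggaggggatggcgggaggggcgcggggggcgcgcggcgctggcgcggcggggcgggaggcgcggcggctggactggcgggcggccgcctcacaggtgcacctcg
Etv5: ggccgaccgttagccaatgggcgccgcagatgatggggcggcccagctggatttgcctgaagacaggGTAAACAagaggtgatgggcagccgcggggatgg
Elf5: gagtcagagtcTTGCCTAAccctctggctg

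The capitals in the Foxa1 and Etv5 stretches are the forkhead motif on the opposite strand, at -141 and -183 from the start site. In the Elf5 stretch they are the C/EBP motif, at -235. The forkhead motif stood in 3.55% of all 27025 promoter windows, the NKX2 motif in 3.07%, the ETS motif in 9.12% and the C/EBP motif in 10.8%. No NKX2 or ETS match was found in the 7 windows. The windows of these genes held 53.7% to 74.0% G and C against a median of 52.7% over all promoters, with Etv5 at the top. Their CG dinucleotides numbered 37 for Etv5, 26 for Foxa1, 25 for Irx2, 14 for Irx3, 12 each for Nkx2-1 and Foxa2 and 3 for Elf5, against a median of 7. A match is a description of these letters and is not evidence of binding.

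After the cell filter, 19488 cells with a median of 1950 UMIs and 853 detected genes remained. The epithelial gate required at least 3 UMIs over Epcam, Cdh1, Krt8, Krt18 and Cldn18 and no UMI of the pan-leukocyte gene Ptprc. It held 1015 cells, or 5.21%, at a median of 4158 UMIs. Sftpc, the surfactant protein gene that defines ATII cells, stood at 73950 CPM in the gate and at 41.6 to 1538 CPM in the other 9 gated types. Of 16 held-out marker genes, 15 had their highest level in the gate they were meant to mark, the exception being Cd74.

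The epithelial gate was not pure, and the comparisons within it by Hopx and by ATII state are also given over a restricted set. Of its 1015 cells, 194 had no UMI of the held-out epithelial genes Sfta2 and Wfdc2. Those 194 cells carried Cd74 at 27262 CPM, the immunoglobulin gene Igkc at 10996 CPM and Il1b at 3155 CPM, with Sftpc at 451 CPM. They held 5 of the 780 Nkx2-1 UMIs of the gate, no Foxa1 or Irx5 UMI, 8 Etv5 UMIs and 1 Elf5 UMI. They also held 6 of the 59 Sox9 UMIs, all 6 in the 149 of these cells that passed another lineage gate. A further mark of other lineages was that 182 of the 1015 cells passed the gate of another cell type as well. The restricted set held the 754 cells that had a Sfta2 or Wfdc2 UMI, passed no other lineage gate and passed no ciliated, club, tuft, neuroendocrine or basal gate. In the restricted set Igkc stood at 20.9 CPM and Il1b at 12.3 CPM.

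All 10 genes were far higher in epithelial cells than in the pooled other gated cells. Nkx2-1 stood at 177 CPM (interval 165 to 190), from 780 UMIs in 453 of the 1015 epithelial cells, against 29 UMIs in 12173 other gated cells, a log2 ratio of 7.67 (7.14 to 8.26). Foxa2 stood at 82.8 CPM (74.5 to 91.8) with a log2 ratio of 7.43 (6.71 to 8.25), and its relative Foxa1 at 24.6 CPM (20.2 to 29.7) with a log2 ratio of 6.22 (5.32 to 7.26). Only 16 Foxa2 UMIs and 11 Foxa1 UMIs were counted in all other gated cells.

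The 4 Iroquois genes behaved alike on this axis. Irx1 stood at 119 CPM (109 to 130), Irx2 at 84.2 CPM (75.8 to 93.2), Irx3 at 92.4 CPM (83.6 to 102) and Irx5 at 69.4 CPM (61.8 to 77.6) in epithelial cells. Their log2 ratios over other gated cells lay between 6.50 for Irx2 and 7.68 for Irx3. Irx4 and Irx6, the remaining genes of these clusters, had 0 UMIs in the epithelial cells, which allows up to 0.683 CPM.

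The ETS factors differed from each other outside the epithelium. Elf5 stood at 55.3 CPM (48.6 to 62.7) in epithelial cells and had 6 UMIs elsewhere, a log2 ratio of 8.26 (7.12 to 9.72). Etv5 stood at 104 CPM (95.1 to 114) but had 226 UMIs elsewhere, which brought its log2 ratio to 3.94 (3.71 to 4.18). Sox9 stood at 13.4 CPM (10.2 to 17.3) on the strength of 59 UMIs, held by 31 epithelial cells, with a log2 ratio of 4.22 (3.51 to 4.97).

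A gene was called where the groups differed at least 2-fold and the interval of the log2 ratio did not include 0. By this rule 10 of 10 genes were called higher in epithelial cells. Of the 14130 genes tested, 15.9% were called higher and 20.5% lower. The median log2 ratio of the 10 genes was 7.23 and that of all tested genes was -0.19. The epithelial cells were deeper, with a median of 4158 UMIs against 1960. The plot of levels by cell type shows each gene across the 10 gates.

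**Figure D1:**
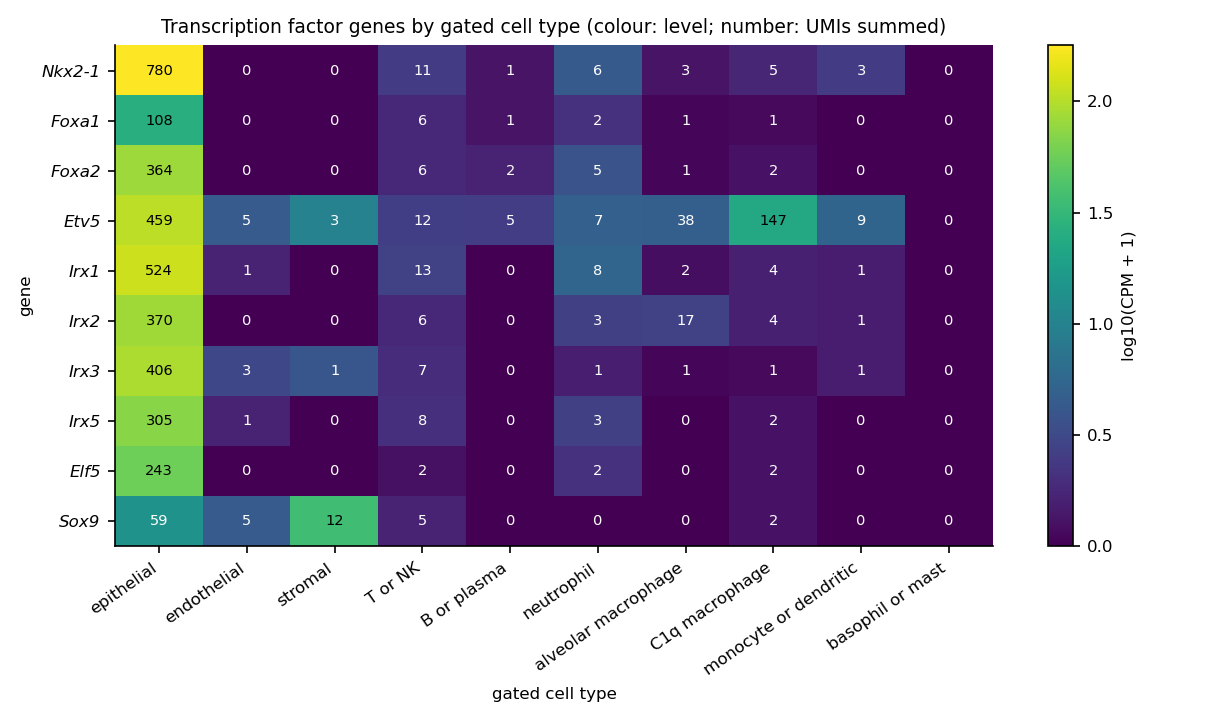
Heat map of the 10 transcription factor genes (rows) in the 10 gated cell types (columns), with color for the level as log10(CPM + 1) and the summed UMIs printed in each field. For 9 of 10 genes the epithelial field has the highest level, as for Nkx2-1 at 177 CPM from 780 UMIs. Sox9 is the exception, with 35.7 CPM in stromal cells, and Etv5 reaches 21.7 CPM in C1q macrophages.

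Levels outside the epithelium were read against Sftpc, because free RNA from lysed tumor cells can give UMIs in cells that do not express a gene. The source of the UMIs outside the epithelium was not tested, and doublets were kept. In the other 9 gated types Sftpc stood at 0.0563% to 2.08% of its epithelial level. Over the 90 pairs of a gene and a cell type, 12 had an interval of their own percentage entirely above that of Sftpc in the same type. The remaining pairs did not exceed this background at the depth of these data. The share of such pairs among other epithelial genes was not computed, so the count of 12 was not judged. Of the 12 pairs, 6 belonged to Etv5, 3 to Sox9 and 1 each to Irx2, Irx3 and Foxa1.

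Etv5 was the gene of the group with the broadest signal outside the epithelium. In C1q macrophages, the interstitial or tumor-associated macrophages that transcribe complement C1q, it stood at 21.7 CPM (18.3 to 25.4), from 147 UMIs in 129 of 1591 cells. This was 20.7% (17.1 to 25.0) of its epithelial level, while Nkx2-1 in the same cells stood at 0.736 CPM from 5 UMIs. In alveolar macrophages Etv5 had 38 UMIs (3.65% of the epithelial level), in monocytes or dendritic cells 9 UMIs (4.14%), in endothelial cells 5 UMIs (3.28%) and in B or plasma cells 5 UMIs (1.51%). The stromal gate had 3 Etv5 UMIs, too few for a firm level. Among alveolar macrophages, those with a TdTomato UMI had Etv5 at 2.90 CPM (1.90 to 4.26). Those without stood at 12.0 CPM (6.18 to 20.9), from 12 UMIs in 9 of 189 cells. The cause of this difference was not tested.

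Irx2 gave a weaker signal of the same kind in alveolar macrophages, with 17 UMIs in 16 of 1777 cells, or 2.03% (1.17 to 3.29) of its epithelial level. Its genomic neighbor Irx1 had 2 UMIs in those cells. The Irx2 level was 1.68 CPM in alveolar macrophages with TdTomato and 1.99 CPM in those without, the latter from 2 UMIs in 1 cell. Foxa1 in T or NK cells rested on 6 UMIs and Irx3 in endothelial cells on 3 UMIs.

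Sox9 was the only gene of the 10 whose highest level lay outside the epithelium. Stromal cells stood at 35.7 CPM (18.4 to 62.3), from 12 UMIs in 7 of 105 cells, and epithelial cells at 13.4 CPM. Endothelial cells followed with 3.43 CPM from 5 UMIs. In T or NK cells its 5 UMIs came from 1 cell. No Sox9 UMI was seen in B or plasma cells, neutrophils, alveolar macrophages, monocytes or dendritic cells, or basophils or mast cells.

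Within the epithelium, Hopx RNA divided the cells into 320 with at least 1 Hopx UMI and 695 without, and this split separated Elf5 and Sox9 from the other genes. Elf5 stood at 26.6 CPM in Hopx-detected cells and at 66.1 CPM in Hopx-undetected cells, a log2 ratio of -1.31 (-1.90 to -0.77). Sox9 had 3 UMIs in Hopx-detected and 56 in Hopx-undetected cells, a log2 ratio of -2.82 (-5.14 to -1.19). Its 59 UMIs lay in 31 cells, 2 of them with Hopx, so this interval, which counts UMIs as separate, is too narrow. Elf5 and Sox9 were the 2 of 10 genes called lower, and none was called higher. In this comparison 3.05% of the 10030 tested genes were called lower and 5.19% higher.

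The other ETS gene, Etv5, stood at 77.3 CPM in Hopx-detected and 115 CPM in Hopx-undetected cells, a log2 ratio of -0.57 (-0.91 to -0.24) that did not reach 2-fold. Nkx2-1 lay in the opposite direction, at 219 against 162 CPM, with a log2 ratio of 0.44 (0.22 to 0.66). The log2 ratios of the Iroquois genes had opposite signs in the 2 genomic pairs, but none was called and those of Irx2 and Irx3 had intervals that include 0. Irx1 was at 138 against 112 CPM (log2 ratio 0.30, 0.02 to 0.57) and Irx2 at 0.24 (-0.09 to 0.56) on the log2 scale, whereas Irx3 was at -0.32 (-0.67 to 0.01) and Irx5 at -0.48 (-0.90 to -0.08). Foxa1 at 0.03 (-0.63 to 0.65) and Foxa2 at 0.20 (-0.14 to 0.53) had intervals that include 0.

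The Hopx-detected cells were shallower, with a median of 3475 UMIs against 4403. When Hopx was instead detected after each cell was thinned to 2000 UMIs, the log2 ratio was -1.39 for Elf5 and -2.51 for Sox9. In the restricted set of 249 Hopx-detected and 505 Hopx-undetected cells, Elf5 stood at -1.34 (-1.95 to -0.78) and Sox9 at -2.46 (-4.79 to -0.82). They were again the 2 genes called lower (3.5% of 8665 tested genes were, and 4.5% were called higher). Irx3 and Irx5 had intervals below 0, while those of Irx1 at 0.28 (-0.01 to 0.55) and Irx2 at 0.06 (-0.30 to 0.40) include 0. Without upper cut-offs on cells, Elf5 stood at -0.95 and fell outside the 2-fold limit.

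The amount of Hopx RNA per cell ordered several genes further in the restricted set. Cells with 0, 1, 2 to 4, and 5 or more Hopx UMIs numbered 505, 89, 93 and 67, at median depths of 4375, 4215, 2788 and 2378 UMIs. Elf5 stood at 88.3, 50.8 and 35.9 CPM in the first 3 of these groups, and in the last it had 0 UMIs, which allows up to 16.6 CPM. Etv5 stood at 146, 163, 62.0 and 27.7 CPM. It was therefore level up to 1 Hopx UMI and lower above that. Nkx2-1 stood at 210, 235, 297 and 310 CPM and Irx1 at 149, 123, 196 and 271 CPM, both highest where Hopx was highest. Irx5 stood at 98.7, 74.9, 75.0 and 33.2 CPM, and all 47 Sox9 UMIs of the set lay in cells with 0 or 1 Hopx UMIs.

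A separate axis was a score of ATII state that uses neither these genes nor Hopx, the summed CPM of Sftpa1, Cxcl15 and Hc in each cell. Cells at 5000 CPM or more were called ATII-high and the rest ATII-low. The score is a range, and 129 of the 1015 cells lay between 2500 and 10000 CPM. Over all epithelial cells, 531 ATII-high and 484 ATII-low, 8 of 10 genes were called higher in ATII-high cells (9.32% of 10028 tested genes were), led by Elf5 at a log2 ratio of 3.32 (2.59 to 4.15) and Etv5 at 2.73 (2.28 to 3.21). The 2 genes not called were Nkx2-1 at 0.91 (0.68 to 1.15) and Foxa1 at 0.80 (0.19 to 1.46).

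That count differed between sets of epithelial cells. Nearly all of the cells without Sfta2 and Wfdc2 RNA, 193 of 194, were ATII-low. In the restricted set, with 509 ATII-high and 245 ATII-low cells, only Etv5 and Elf5 were called (5.34% of 8663 tested genes were called higher and 7.6% lower). Etv5 stood at 158 against 45.9 CPM, a log2 ratio of 1.78 (1.26 to 2.35), and Elf5 at 89.3 against 18.6 CPM, a log2 ratio of 2.26 (1.46 to 3.19). Irx3 at 0.65 (0.24 to 1.08) and Irx5 at 0.59 (0.12 to 1.08) were above 0 without reaching 2-fold. Nkx2-1 lay below 0, at -0.27 (-0.52 to -0.02), where the median log2 ratio of all tested genes was -0.14. Foxa1 at 0.10, Foxa2 at 0.05, Irx1 at 0.03, Irx2 at 0.16 and Sox9 at 0.26 had intervals that include 0. The plot of log2 ratios sets the comparisons side by side, over all epithelial cells and over the restricted set.

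**Figure D2:**
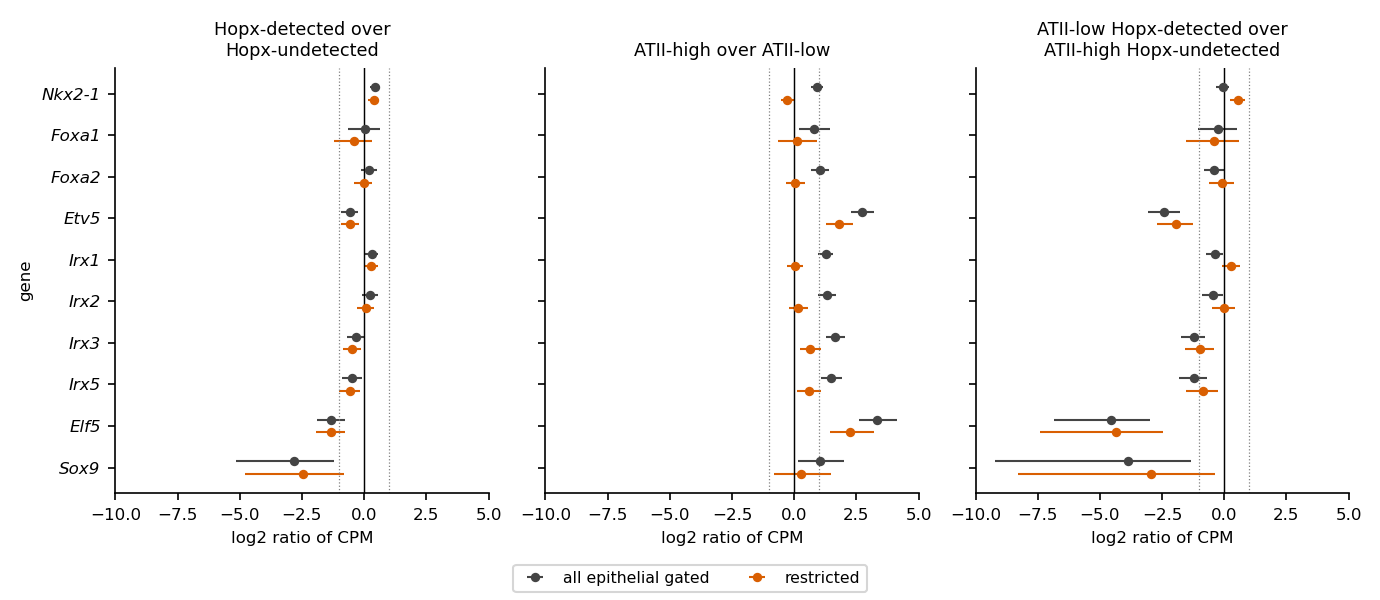
Log2 ratio of CPM (horizontal axis) for each of the 10 genes in 3 comparisons within the epithelial gate, with exact 95% intervals as bars and dotted lines at 2-fold, over all epithelial cells (black) and over the restricted set of 754 cells (orange). In the ATII-high over ATII-low panel the restricted points of 8 genes lie under 2-fold, while Etv5 at 1.78 and Elf5 at 2.26 stay above it.

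Across finer steps of the ATII score in the restricted set, Elf5 and Etv5 had their lowest levels in the lowest step. Elf5 stood at 5.32 CPM (0.645 to 19.2) in the 146 cells under 500 CPM of score and at 91.6 CPM (76.3 to 109) in the 243 cells at 20000 or more. In the 60 cells from 500 to 2500 it was at 21.3 CPM and in the 39 cells from 2500 to 5000 at 52.5 CPM, and in the 80 cells from 5000 to 10000 at 46.6 CPM. Etv5 stood at 16.0 CPM (5.86 to 34.8) in the lowest step, at 90.4 CPM in the next, and at 191 CPM (169 to 216) in the highest. Nkx2-1 stood at 264 CPM (214 to 321) in the lowest step and 201 CPM (178 to 226) in the highest.

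**Figure D3:**
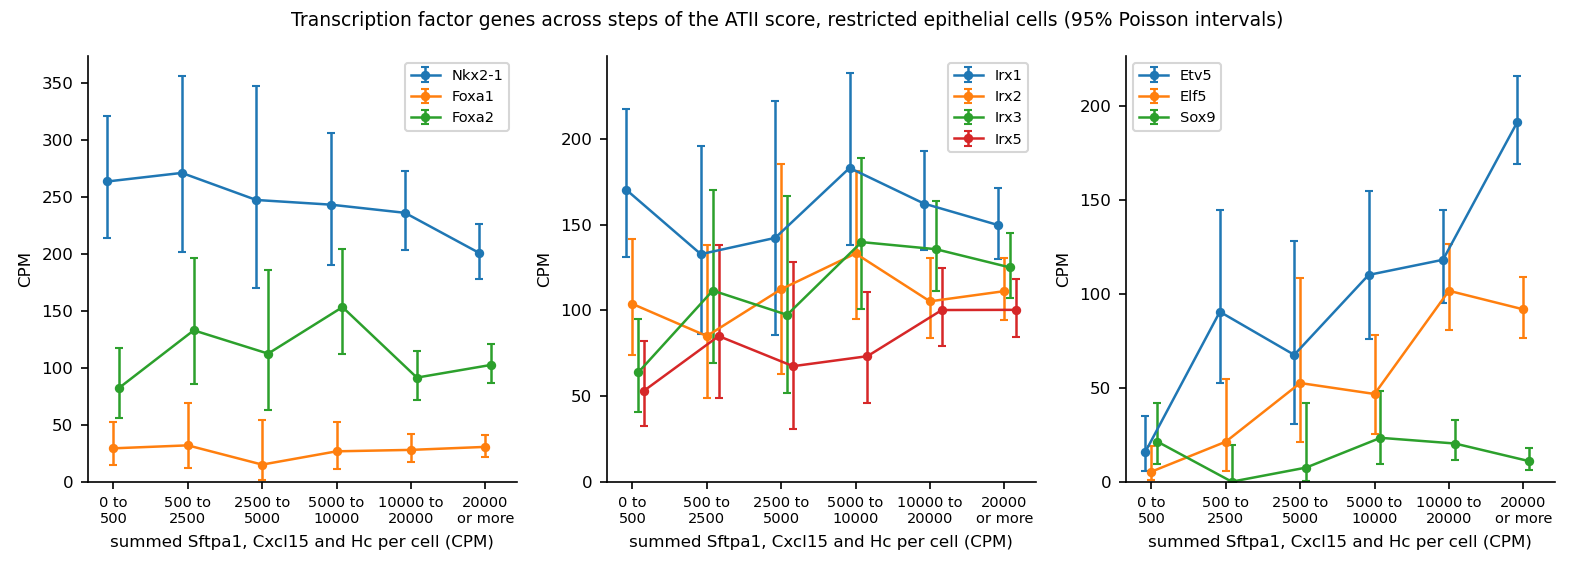
Level (CPM, vertical axis, with exact 95% intervals as bars) of each gene in the restricted epithelial cells, in 6 steps of the per-cell ATII score, with lines joining the steps. Elf5 goes from 5.32 CPM in the lowest step to 91.6 CPM in the highest and Etv5 from 16.0 to 191 CPM, while Nkx2-1 stays between 201 and 271 CPM.

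Combining both axes gave 4 states of the restricted cells. They held 420 ATII-high Hopx-undetected cells, 89 ATII-high Hopx-detected cells, 160 ATII-low Hopx-detected cells and 85 ATII-low Hopx-undetected cells, at medians of 4651, 4730, 2366 and 2984 UMIs. The ATI gene Ager stood at 655, 1394, 3751 and 1019 CPM in this order and Sftpc at 119760, 99647, 31176 and 43660 CPM. Stk11, the gene under the XTR allele, had 94 UMIs in the epithelial gate, or 21.4 CPM (17.3 to 26.2), which does not check the cohorts because the mice are not separated. TdTomato lay between 5707 and 6414 CPM in all 4 states. Krt8, a keratin raised in cells between the ATII and ATI states, stood highest in the ATII-low Hopx-undetected cells, at 1843 CPM.

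The states furthest apart, ATII-low Hopx-detected and ATII-high Hopx-undetected, had their log2 ratio furthest from 0 at Elf5. It had 2 UMIs in the former (4.64 CPM, 0.561 to 16.7) and 192 in the latter (94.4 CPM, 81.5 to 109), a log2 ratio of -4.35 (-7.40 to -2.48). Etv5 stood at 41.7 CPM against 158 CPM, a log2 ratio of -1.92 (-2.70 to -1.24). Sox9 had 1 UMI in 1 cell against 36 UMIs in 19 cells, a log2 ratio of -2.93 (-8.28 to -0.36) whose interval counts UMIs as separate. These 3 of 10 genes were called lower, beside 6.81% of the 8027 tested genes, and none was called higher, beside 8.73%.

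Nkx2-1 was not among them. It stood at 308 CPM (258 to 365) in ATII-low Hopx-detected cells and at 213 CPM (193 to 234) in ATII-high Hopx-undetected cells, a log2 ratio of 0.53 (0.24 to 0.82). Foxa2 was at 97.4 against 104 CPM (log2 ratio -0.10, -0.61 to 0.38) and Foxa1 at 23.2 against 30.5 CPM (-0.40, -1.52 to 0.58). Irx1 was at 185 against 154 CPM (0.26, -0.11 to 0.62) and Irx2 at 111 against 112 CPM. Irx3 was at 67.2 against 133 CPM (-0.98, -1.59 to -0.43) and Irx5 at 55.6 against 101 CPM (-0.86, -1.54 to -0.25), both under the 2-fold limit.

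Over the whole gate, without the restriction, 5 of 10 genes were called lower (7.83% of 8756 tested genes were). Irx3 at -1.23 (-1.74 to -0.76) and Irx5 at -1.22 (-1.80 to -0.68) stood beside the 3 above, and Nkx2-1 was at -0.06 (-0.34 to 0.20). The restriction acted mainly on 1 side. No Sfta2 or Wfdc2 UMI was found in 40 of 226 ATII-low Hopx-detected cells and in 1 of 437 ATII-high Hopx-undetected cells. The Nkx2-1 difference in the restricted set therefore depends on that filter.

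The median log2 ratio of all tested genes in the restricted comparison was 0.13. The ATII genes make up a large part of the UMIs of ATII-high cells. Taking these genes out of the totals moved the log2 ratio of every gene by -0.23. On that scale 5 of 10 genes were called lower, Irx3 at -1.21 and Irx5 at -1.09 being the additions, where 9.90% of the 8027 tested genes were called lower, and Nkx2-1 stood at 0.30.

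**Figure D4:**
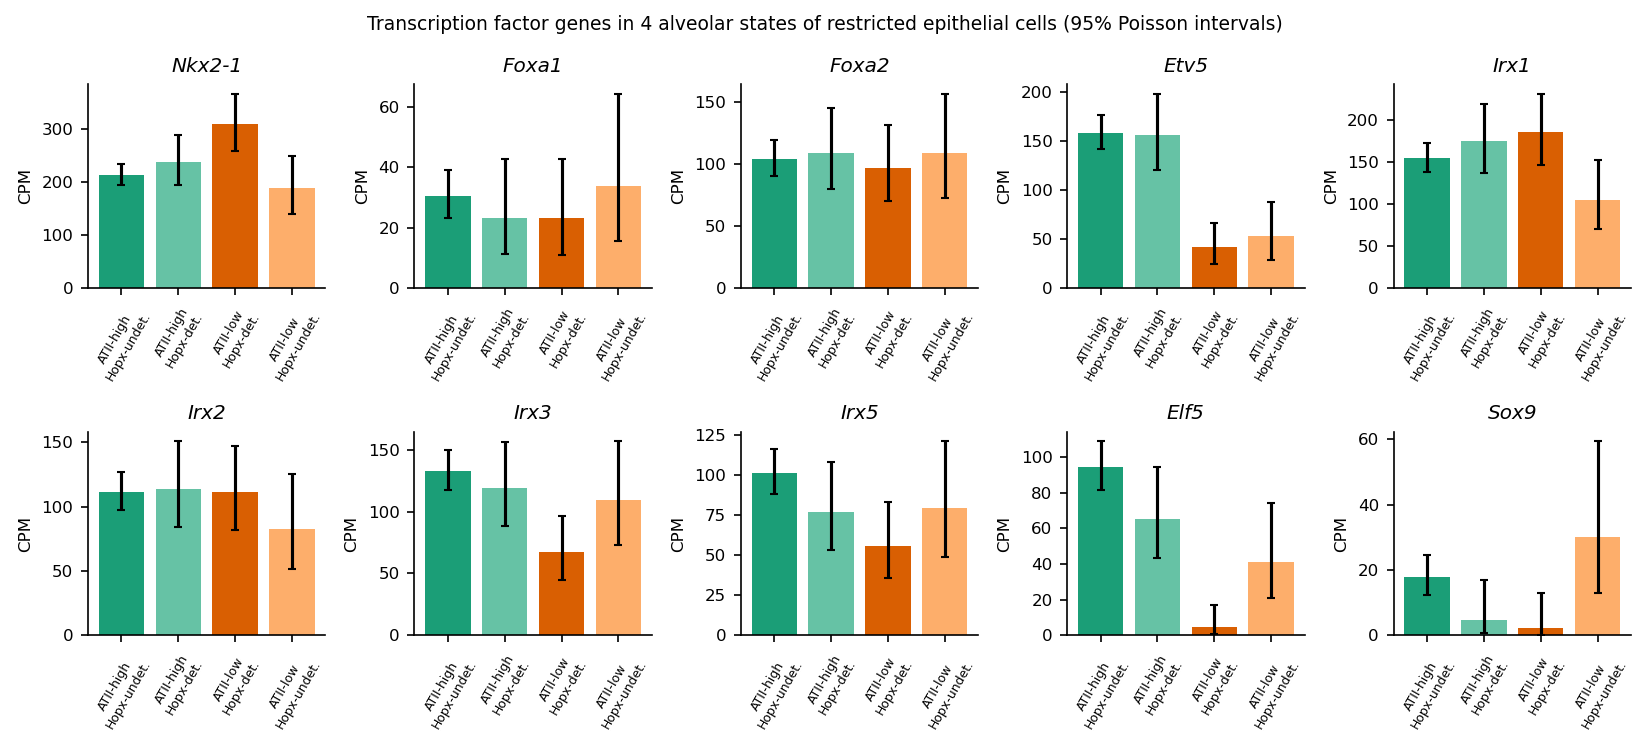
Bars of the level (CPM, from 0, with exact 95% intervals) of each gene, 1 panel per gene with its own scale, in the 4 states of the restricted epithelial cells. Elf5 stands at 94.4 CPM in ATII-high Hopx-undetected and 4.64 CPM in ATII-low Hopx-detected cells, and Nkx2-1 at 213 and 308 CPM.

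The 2 intermediate states placed the ETS genes differently. In ATII-high Hopx-detected cells Etv5 stood at 156 CPM (121 to 198) and Elf5 at 65.1 CPM (43.3 to 94.2), and none of the 10 genes was called against ATII-high Hopx-undetected cells (2.05% of 7915 tested genes were called higher and 1.97% lower, or 4.02% in either direction). In ATII-low Hopx-undetected cells Etv5 stood at 52.7 CPM (28.8 to 88.4) and Elf5 at 41.4 CPM (20.7 to 74.0). Against ATII-high Hopx-undetected cells these were log2 ratios of -1.59 (-2.48 to -0.82) and -1.19 (-2.22 to -0.32), the 2 genes called lower beside 4.05% of 7773 tested genes, of which 6.34% were called higher and 10.4% in either direction. Elf5 in the ATII-low states was at 41.4 CPM without and 4.64 CPM with Hopx, from 11 and 2 UMIs, a log2 ratio of -3.16 (-6.37 to -0.96) below the minimum of 20 UMIs for a call. In that comparison Nkx2-1, at 308 with and 188 CPM without Hopx, had a log2 ratio of 0.71 (0.23 to 1.21), and Irx1 had 0.82 (0.18 to 1.49). Of the 7 genes that reached 20 UMIs none was called, beside 4.1% called higher and 3.16% called lower among 4246 tested genes, or 7.25% in either direction.

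The balance of the Iroquois pairs differed between states. Of all Irx1, Irx2, Irx3 and Irx5 UMIs, the chromosome 13 pair Irx1 and Irx2 made up 53.2% (50.1 to 56.3) in ATII-high Hopx-undetected cells and 59.6% (52.6 to 66.3) in ATII-high Hopx-detected cells. In ATII-low Hopx-detected cells the pair made up 70.7% (63.5 to 77.2), an interval that does not overlap that of ATII-high Hopx-undetected cells. In ATII-low Hopx-undetected cells it made up 50% (39.8 to 60.2), from 50 UMIs of each pair. As a share within the Iroquois genes, this value does not depend on the totals used for CPM.

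Rare epithelial cells were found with their own markers, and their small number limits each value. In the 24 ciliated-gated cells Foxa1 stood at 94.2 CPM (45.2 to 173) and Foxa2 at 179 CPM (108 to 280), against 22.0 CPM (17.7 to 27.1) and 81.8 CPM (73.4 to 91.1) in the 965 epithelial cells outside the rare gates. Irx5 was at 151 CPM (86.2 to 245) in ciliated-gated and 69.0 CPM (61.2 to 77.5) in the other cells, and Irx1 at 37.7 CPM (10.3 to 96.5) against 123 CPM (113 to 135). No Elf5 UMI was seen in ciliated-gated cells, which allows up to 28.3 CPM. The 43 club-gated cells, gated on genes of the secretory cells of the airway, had Foxa1 at 69.8 CPM (39.9 to 113) and Irx1 at 26.2 CPM (9.60 to 57.0). A cell could pass more than 1 rare gate, and 965 of the 1015 epithelial cells passed none. The ciliated and club gates therefore shared cells, and their values are not independent. Foxa1 had 10 UMIs in ciliated-gated and 16 in club-gated cells, while 91 of its 108 UMIs lay outside the rare gates. Most Foxa1 UMIs of either gate thus lay in cells that passed both, so the club-gated level is not a separate result. Nkx2-1 was at 151 CPM in ciliated-gated, 174 CPM in club-gated and 178 CPM in the other cells, with overlapping intervals. A gate for neuroendocrine cells found none, and 1 basal-gated and 5 tuft-gated cells were too few to describe.

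Sox9 was concentrated in few cells. The 20 cells with the most Sox9 held 81.4% of its UMIs, where the same share was 12.3% to 29.6% for the other 9 genes. Of the 31 Sox9-positive epithelial cells, 16 had 2 or more UMIs. Of the 59 Sox9 UMIs, 4 lay in the 43 club-gated cells, at 17.4 CPM (4.75 to 44.7) against 13.3 CPM (10.0 to 17.3) in the epithelial cells outside the rare gates. No Sox9 UMI was seen in ciliated-gated or tuft-gated cells, which allows up to 28.3 and 123 CPM. Of the 31 cells, 28 had a TdTomato UMI and 29 had a Sfta2 or Wfdc2 UMI. By state, 22 of the 31 were ATII-high and Hopx-undetected, the largest state with 437 cells of the gate. Sox9 stood there at 19.7 CPM, and at 13.2 CPM in ATII-low Hopx-undetected cells of the gate. In the restricted set the order was reversed, at 17.7 and 30.1 CPM, the latter from 8 UMIs in 5 of 85 cells. The restricted log2 ratio of ATII-low over ATII-high Hopx-undetected cells was 0.77 (-0.55 to 1.89), which was not called. Collagen RNA, a mark of the stromal cells in which Sox9 was highest, was seen in 1 of the 31 cells and in 6 of all 1015 epithelial cells. Another lineage gate was passed by 3 of the 31 cells.

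The tdTomato reporter separated the epithelial gate as well. In 860 cells with a TdTomato UMI Nkx2-1 stood at 209 CPM (194 to 224), and in 155 cells without at 10.1 CPM (4.05 to 20.7). Irx1 stood at 141 and 2.87 CPM, Etv5 at 122 and 10.1 CPM, and Elf5 at 65.4 and 1.44 CPM. Sox9 was the exception, at 13.8 CPM (10.3 to 18.1) with and 11.5 CPM (4.96 to 22.7) without TdTomato. The latter rests on 8 UMIs in 3 cells, too few for a firm level. The cells without TdTomato had Sftpc at 415 CPM, Cd74 at 25469 CPM and Scgb1a1, a club cell gene, at 56032 CPM.

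Shares of cells were compared after each cell was thinned to 1000 UMIs, and shallower cells were left out, which kept 999 of 1015 epithelial cells. Nkx2-1 was then detected in 17.9% (15.6 to 20.4) of epithelial cells, Irx1 in 10.3%, Etv5 in 8.51%, Foxa2 in 8.41%, Irx2 and Irx3 in 8.11% each, Irx5 in 6.81%, Elf5 in 4.90%, Foxa1 in 2.80% and Sox9 in 1.10% (0.551 to 1.96). At full depth the shares ran from 3.05% for Sox9 to 44.6% for Nkx2-1. For 9 of 10 genes the thinned share had an interval above that in T or NK cells, B or plasma cells, neutrophils, alveolar macrophages and C1q macrophages, the exception being Sox9. The interval of Sox9 met only that of neutrophils, which had 0 positive cells of 631 and an upper limit of 0.583%. How many of all genes would pass the same comparison was not computed, so the count of 9 was not judged. The neutrophils kept 631 of 1514 cells, and their median was 909 UMIs before thinning. In C1q macrophages Etv5 was detected in 2.34% (1.65 to 3.21) of 1582 cells after thinning.

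Between states, the thinned shares had the same order as the levels for the ETS genes. Etv5 was detected in 14.1% (10.9 to 17.8) of ATII-high Hopx-undetected cells and 3.23% (1.06 to 7.37) of ATII-low Hopx-detected cells. Elf5 was detected in 9.22% (6.61 to 12.4) and 1.29% (0.157 to 4.58). Nkx2-1 was detected in 22.8% (18.9 to 27.2) and 26.5% (19.7 to 34.1).

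The number of the 10 genes detected per cell was higher in epithelial cells than in immune cells. Whether the genes met in the same epithelial cell more often than their separate shares would give was not tested. After thinning, 25.2% (22.1 to 28.5) of the 739 restricted cells deep enough had UMIs of at least 2 of the 10 genes and 36.3% (32.8 to 39.8) had none. In the 5 immune types 97.5% to 99.7% of cells had none, and at most 0.158% had at least 2. Among the states, 30.1% (25.7 to 34.8) of ATII-high Hopx-undetected cells and 21.3% (15.1 to 28.6) of ATII-low Hopx-detected cells had at least 2.

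**Figure D5:**
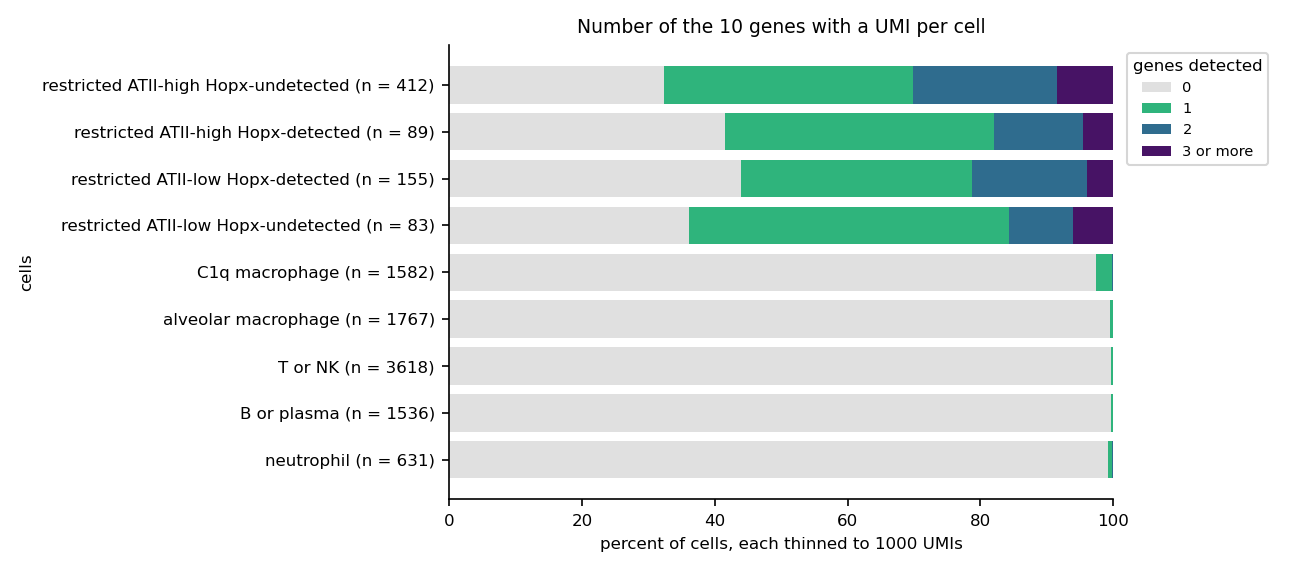
Stacked bars of the percent of cells with UMIs of 0, 1, 2, or 3 or more of the 10 genes after thinning every cell to 1000 UMIs, in the 4 restricted epithelial states and 5 immune types. The states have none of the genes in 32.3% to 43.9% of cells, against 97.5% to 99.7% in the immune types.

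Across the 10 gated types and the 4 epithelial states, the genes whose profiles were most like those of the 10 were found by Pearson's r of log2(CPM + 10) over these 14 groups, which is a description, since the states are subsets of the epithelial gate and share its libraries. Elf5 was closest to Mfsd2a, a lipid transporter gene of ATII cells (r = 0.996), and Etv5 to Slc15a2, a peptide transporter gene (r = 0.979). Irx1 and Irx2 were among each other's 3 closest genes (r = 0.998), with Npw first for both, and Irx5 was among the closest for Irx3 (r = 0.996). Nkx2-1 and Foxa2 both had Esrp2, an epithelial splicing factor gene, among their 3. Sox9 had a lower best value, with Rerg at 0.947.

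Among other lung epithelial and endoderm regulators, a list of 35 genes, 29 were tested over the cell types. Of these, 20 were called higher and 1 lower in epithelial cells, with a median log2 ratio of 2.61. Over all 14130 tested genes, 15.9% were called higher and 20.5% lower, which are the shares to set beside each list here. Within the list of regulators, Tfcp2l1 stood highest at 6.52, followed by Klf5 at 4.60 and Gata6, an endoderm factor, at 4.56. Cebpb, a factor of myeloid cells too, was at -2.48. Of the 8 FGF-ETV genes, which hold the receptor gene Fgfr2 and feedback genes of the pathway that induces Etv5, 6 were called higher in epithelial cells, among them Fgfr2 at 5.98, Spry2 at 3.76 and Spry1 at 3.30. Of the 16 ATII genes linked to NKX2-1, 15 were tested without the gate gene Cldn18 and 14 were called higher, Lyz2 being called lower at -1.08. Of 12 ATI genes 10 were called higher and 1 lower, and of 9 transitional genes outside the gate 7 were called higher and 1 lower. Of the 5 C/EBP genes 1 was called higher, Cebpa at 1.33, and 2 were called lower. Only 3 of the 9 gastric and endoderm genes could be tested, and 2 of them were called lower.

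In ATII-low Hopx-detected against ATII-high Hopx-undetected restricted cells, the same lists moved apart. Over all 8027 tested genes of this comparison, 8.73% were called higher and 6.81% lower. All 10 tested ATI genes were called higher, with a median log2 ratio of 3.58, among them Spock2 at 7.76, Akap5 at 5.69 and Clic5 at 3.64. Hopx itself is not on that list, but it defined the groups, and the score genes were left out of the ATII list. Of the 13 ATII genes 12 were called lower, with a median of -1.96, among them Lyz2 at -6.80, Lamp3 at -3.60 and Slc34a2 at -3.20. Etv5 is a gene of this list as well. Cldn18, which has a known ATI isoform, was called higher at 1.62. Of 9 transitional genes 8 were called higher, with a median of 2.60, including Cldn4 at 4.44, Itgb6 at 4.20 and Sprr1a, with 38 UMIs against 0, a log2 ratio of at least 5.90 from a limit of 3 UMIs.

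Of 25 tested other regulators, 3 were called higher and 7 lower in that comparison, beside 8.73% and 6.81% of all tested genes. The 3 called higher are near that share. The median of the list was -0.63 beside 0.13 for all tested genes. Those called higher were Tead1 at 2.18 and Wwtr1 at 1.52, which act in the Hippo pathway, and the Notch target gene Hes1 at 1.26. Among those called lower were Ehf, a further ETS gene, at -2.13, Id2 at -2.09 and Cebpa, the C/EBP gene of ATII cells, at -2.08. Of 4 tested C/EBP genes 2 were called lower, Cebpg at -1.14 being the other. Of 7 tested FGF-ETV genes 2 were called lower, with Fgfr2 at 30.1 against 123 CPM and a log2 ratio of -2.03 (-2.96 to -1.23), and the median was -0.67. For the 10 genes described here the median was -0.63. No gene of the 9 gastric and endoderm genes reached 20 UMIs in these restricted cells.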

How the data were processed

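Viable cells sorted from tumors of 4 mice (2 Restored, 2 Non-Restored) were profiled by the authors with 10x 3′ chemistry. The authors deposited raw counts of UMIs for each cell, which Cell Ranger 3.0.2 had made on mm10 with GFP and TdTomato as added features. A further allele that both cohorts share is not reported here. Cells carried only a column number, so barcodes shared between libraries could not be counted and the depth of each mouse is unknown. Cells with at least 200 genes and at or below the 98th percentile of genes (2713) and of the mitochondrial share (13.4%) were kept. Each cell took the epithelial gate first and otherwise a type only if it passed exactly 1 gate (2015 cells passed several, 4285 none). UMIs were summed and scaled to CPM in Python 3.11.15 (numpy 2.4.6, scipy 1.17.1, pandas 2.3.3), with exact Poisson, Clopper-Pearson and conditional binomial intervals, after the calculations were tested on simulated data. A count of 0 was given an upper limit of 3 UMIs. Ratios were called at 2-fold among genes with at least 20 UMIs. Scrublet (scanpy 1.11.5) marked 94 of 19488 cells (0.482%), too few to have worked on the pooled matrix, and doublets were kept. Named genes are all 10 genes, up to 3 genes of each fixed list in each direction at 50 CPM or more, and the 3 genes closest in profile among those at 20 CPM or more in any group. The genes and lists were chosen with earlier results of these data known, and the restricted set, the 4 states and the steps of Hopx and score were added after the data were seen. Alternatives covered cell filters, gates, totals, per-cell means and score limits.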

Additional observations from a re-analysis of the deposited data

How the results depend on the processing

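Over all alternatives run no log2 ratio that had been called turned its sign, and 52 counts of genes stayed within 1.5 times the reported count while 7 did not. The count of 10 genes called higher in epithelial cells and the count of 9 genes highest there were unchanged in each alternative. Of the 2 genes called lower in Hopx-detected cells, 1 was called without upper cut-offs on cells (2.26% of all tested genes called lower), and 3 were with at least 2 Hopx UMIs against 0 (7.36%). The count of 8 genes called higher in ATII-high cells was 2 without cells that passed another lineage gate (5.97% of all tested genes called higher), 2 in the restricted set (5.34%), 3 among cells with a TdTomato UMI (6.0%), 5 with the mean of per-cell CPM, where a call needs the fold alone (8.5%), and 4 at a score limit of 10000 CPM (7.41%). With totals without the ATII genes, which moved every log2 ratio of that comparison by 0.25, the count of 8 became 10 (13.7% called higher). The 3 genes called lower between the furthest restricted states became 5 with totals without the ATII genes (9.90% called lower). For these counts the cause was not tested. Log2 ratios of Elf5 ranged from -1.82 to -0.95 in the Hopx comparison and from -4.58 to -3.96 between the furthest states, and those of Nkx2-1 in the ATII comparison from -0.27 to 1.16.

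No paired analysis was possible because cells are not linked to mice, and no replicate was left out for the same reason. A tuft gate of at least 4 UMIs held no cells and gave no value. Depth limits Sox9, Foxa1 and the ATII-low states, where a level rests on few UMIs. Intervals cover counting error only, UMIs of a cell share its capture, and the spread between mice is not included.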

Other observations

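Cells outside the comparisons carried these genes too. Of the 4285 cells that passed no gate, 151 had a UMI of Sfta2 or Wfdc2, and these held 43 of the 46 Nkx2-1 UMIs, 19 of the 19 Foxa2 UMIs, 28 of the 31 Irx1 UMIs and 8 of the 8 Elf5 UMIs of the ungated cells, with Sftpc at 71798 CPM. Of these 151 cells, 40 had a UMI of Ptprc and 13 had enough epithelial marker UMIs for the epithelial gate. Among the 1987 cells that passed several gates and had no Sfta2 or Wfdc2 UMI, Etv5 had 60 UMIs and Sox9 had 13, while Nkx2-1 had 2 and Elf5 had 1.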
